A study of Mus musculus with 9 samples.

Results

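The genes described here are 10 genes of natural killer cells and of the cytotoxic granule, chosen by name from a deposited table of 16165 genes, in which all 10 were found: Klrb1c, Ncr1, Klrk1, Klrd1, Klre1, Nkg7, Prf1, Gzma, Gzmb and Eomes. They were measured by RNA sequencing of total lung RNA in 9 mouse libraries, 3 per group. In the first group, TGFα mice had received doxycycline (Dox) for 6 weeks, with pirfenidone, an antifibrotic drug, over the last 3 weeks. In the second group, TGFα mice on Dox for 6 weeks received the drug's vehicle over the same last 3 weeks. In the third group, control mice received vehicle for 3 weeks, and the labels of these libraries do not name Dox. No control group received pirfenidone, so the drug was set against its vehicle within TGFα mice only. The comparison of pirfenidone-treated TGFα lungs with controls joins the drug with all that sets TGFα mice on Dox apart from controls. In mice of this kind Dox switches on a transgene for transforming growth factor α, a ligand of the epidermal growth factor receptor. The promoter that drives the transgene, the strain, the age and the sex are not stated by the labels, nor is it stated whether each library came from a separate animal, so that p-values measure the spread between libraries.

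Natural killer cells are lymphocytes that kill stressed, infected or transformed cells without prior sensitisation, and the lung is among the tissues that hold many of them. Activating receptors (the products of Ncr1, Klrk1 and Klrb1c) and receptors of the CD94 type (Klrd1, Klre1) read the surface of a target cell. On activation, granules release perforin (Prf1), which opens the target membrane, and granzymes (Gzma, Gzmb), proteases that enter through it. Nkg7 lies in the granule membrane and acts in granule release, and Eomes is a T-box transcription factor that natural killer cells need for their maturation. Cytotoxic T cells also use the granule genes, Nkg7, Klrd1 and Klrk1, whereas Ncr1 is the most restricted to natural killer and related innate cells.

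Levels are given as RPKM (reads scaled by gene length and by the reads of the library), so that they can be compared between genes. The reads behind the values numbered 11428709 to 14125367 per library in the pirfenidone group, 16327952 to 18874158 in the TGFα vehicle group and 15474002 to 16923531 in controls. The 10 genes are of low abundance in whole lung. A single gene had between 8 and 364 reads in a library, which gives a counting error of 35.4% at the lowest and 5.24% at the highest count. Differences were tested with limma on log2(RPKM + 1), with Benjamini-Hochberg adjustment over all 13849 genes above 1 RPKM in at least 3 libraries and a threshold of 0.05. Of the 10 genes, 9 passed that filter, and 6 were above 1 RPKM in all 9 libraries. Klrk1 passed it through the control and pirfenidone libraries, Klre1 through the controls, 2 pirfenidone libraries and 1 TGFα vehicle library, Gzmb was under 1 RPKM in 1 library, and Eomes did not pass and was tested only without a filter. Folds are ratios of mean RPKM, while log2 fold changes are on the log2(RPKM + 1) scale and understate the change of low genes.

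Some libraries stood apart before any comparison. Acta1, the actin of skeletal muscle, was at 128, 574 and 0.946 RPKM in pirfenidone libraries 1, 2 and 3, at 407, 158 and 0.540 RPKM in TGFα vehicle libraries 1, 2 and 3, and at most at 0.740 RPKM in controls. Skeletal muscle transcripts were thus raised in 4 libraries, all from TGFα mice. Chil3, a macrophage chitinase-like protein, was at 8290 RPKM in control library 3, against 287 and 361 RPKM in the other controls. Sftpc, the surfactant gene of alveolar type 2 cells, was at 12880 RPKM or more in every library. The mouse Tgfa row averaged 5.65 ± 0.0425 RPKM with pirfenidone, 6.85 ± 0.826 RPKM in the TGFα vehicle group and 6.84 ± 0.789 RPKM in controls (SD, n = 3 each). Whether reads of the transgene fall on that row is not given in the sources used here, so Tgfa could not serve as a check of the labels.

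In the RefSeq annotation of mouse build GRCm38.p6, Klrb1c (chr6:128778485-128788641), Klre1 (chr6:129559365-129585828), Klrd1 (chr6:129588092-129598775) and Klrk1 (chr6:129610323-129623903) lie in the natural killer gene complex. The other genes are on separate chromosomes or far apart: Ncr1 at chr7:4337715-4345184, Nkg7 at chr7:43437138-43438246, Prf1 at chr10:61297751-61304684, Gzma at chr13:113093824-113100981, Gzmb at chr14:56258836-56262334 and Eomes at chr9:118478186-118486132. Gzma overlaps the span of Cdc20b, and counting by strand is not stated. Cdc20b itself was low, with means of 0.176 RPKM with pirfenidone, 0.233 RPKM in the TGFα vehicle group and 0.636 RPKM in controls. Gzma averaged 9.79 RPKM, 6.31 RPKM and 21.2 RPKM in the same groups. The share of Cdc20b in the Gzma count was not tested. Gzmb and Klrb1c have close relatives in the genome, and the sources used here do not say how shared reads were counted.

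The 10 genes lie on 6 chromosomes and were lower together in TGFα vehicle lungs, and the 250 bases before the transcription start of 5 of them are printed, with the start taken from the RefSeq promoter table of GRCm38.p6. For Prf1 that start lies 85 bases inside the gene span given above, and for the other 4 it is the boundary of the span. They are shown 5′ to 3′ on the gene's own strand. Capitals mark the RUNX core TGTGGT (or ACCACA, the other strand) and the T-box core AGGTGT (or ACACCT), the core letters of the factor families that include RUNX3, T-bet and EOMES.
Nkg7 promoter, chr7:43436888-43437137, plus strand: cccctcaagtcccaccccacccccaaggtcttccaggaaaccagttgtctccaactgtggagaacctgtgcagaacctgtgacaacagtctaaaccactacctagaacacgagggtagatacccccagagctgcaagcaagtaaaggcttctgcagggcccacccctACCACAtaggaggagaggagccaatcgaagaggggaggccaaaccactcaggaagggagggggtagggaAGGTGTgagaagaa
Prf1 promoter, chr10:61297586-61297835, plus strand: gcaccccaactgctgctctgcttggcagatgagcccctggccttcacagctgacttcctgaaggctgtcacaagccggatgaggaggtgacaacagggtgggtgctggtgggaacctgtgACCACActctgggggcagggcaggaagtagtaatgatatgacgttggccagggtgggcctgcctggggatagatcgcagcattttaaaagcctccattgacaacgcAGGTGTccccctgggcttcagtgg
Gzma promoter, chr13:113100982-113101231, minus strand: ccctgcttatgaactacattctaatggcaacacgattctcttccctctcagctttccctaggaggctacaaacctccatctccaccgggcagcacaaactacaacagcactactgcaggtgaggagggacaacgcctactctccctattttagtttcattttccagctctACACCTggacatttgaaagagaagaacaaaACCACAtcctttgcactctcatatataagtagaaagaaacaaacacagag
Gzmb promoter, chr14:56262335-56262584, minus strand: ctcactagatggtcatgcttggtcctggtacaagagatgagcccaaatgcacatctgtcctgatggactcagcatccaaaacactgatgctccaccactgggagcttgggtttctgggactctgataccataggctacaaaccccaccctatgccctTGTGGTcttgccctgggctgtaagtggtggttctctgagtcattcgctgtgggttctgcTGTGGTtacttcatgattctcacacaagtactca
Ncr1 promoter, chr7:4337465-4337714, plus strand: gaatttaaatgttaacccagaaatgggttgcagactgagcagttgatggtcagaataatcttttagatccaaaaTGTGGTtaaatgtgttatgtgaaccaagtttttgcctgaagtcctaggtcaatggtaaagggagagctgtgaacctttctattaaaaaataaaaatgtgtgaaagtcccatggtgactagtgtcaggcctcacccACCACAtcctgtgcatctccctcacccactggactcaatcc
Given by its leftmost base, counted back from that start, the RUNX core was at position -83 of Nkg7, -130 of Prf1, -50 of Gzma, -93 and -34 of Gzmb, and -176 and -41 of Ncr1. The T-box core was at position -14 of Nkg7, -24 of Prf1 and -80 of Gzma. No marked match overlapped another. The table held 11 promoter entries for 9 of the 10 genes, all but Klrd1, each of 300 bases that run to 50 bases past the start. The RUNX core was in 9 of these 11 entries, and in 16.8% of all 32851 entries of the table. It was found for 8 of the 9 genes, with Eomes the exception. The T-box core was in 3 entries and in 13.7% of all entries, the ETS core AGGAAG (or CTTCCT) in 4 and in 35.4%, and the STAT form TTCNNNGAA, which reads the same on both strands, in 2 and in 8.30%. A match is a description of these letters and not of a bound site.

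TGFα vehicle lungs had less of every one of the 10 transcripts than control lungs. Without a filter, limma called 10 of 10 lower, against 10.3% of all 16165 genes. The 10 genes were chosen with earlier results of these data known, so this count and those below are descriptions and no independent test. With the filter, 9 of the 9 tested were called lower, against 11.2% of the 13849 genes tested, and this count favours genes that passed through high controls. In all 10 the 3 TGFα vehicle values lay below the 3 control values, as in 18.8% of the genes tested. Group means in TGFα vehicle lungs were between 26.5% (Eomes) and 47.2% (Klrb1c) of the control mean, with a median of 35.7%. Over the 9 tested, the median log2 fold change was -1.16, against 0.04 over all genes tested. In whole lung, fewer cells of a type and less RNA per cell cannot be told apart. When 1 library was left out in turn, the count fell to 3 of 9 without TGFα vehicle library 2 and to 5 of 9 without TGFα vehicle library 3. It was 6 of 9 without control library 1 and 7 of 9 without control library 2. Over all genes, 3222 calls became 1361 and 1317 without TGFα vehicle library 2 or 3, and 1667 and 1614 without control library 1 or 2. Without the 4 libraries that held skeletal muscle transcripts, an alternative chosen after seeing the data, limma called 0 of 9 and 8 had an unadjusted p under 0.05, as had 27.7% of all genes tested. Each TGFα group then had a single library, assumed to vary like the controls, and all 9 log2 fold changes were still negative, between -1.71 and -0.73. The single TGFα vehicle library was library 3, where Acta1 was at 0.540 RPKM. Its levels below every control are part of the range count above and add no separate result.

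**Figure D1:**
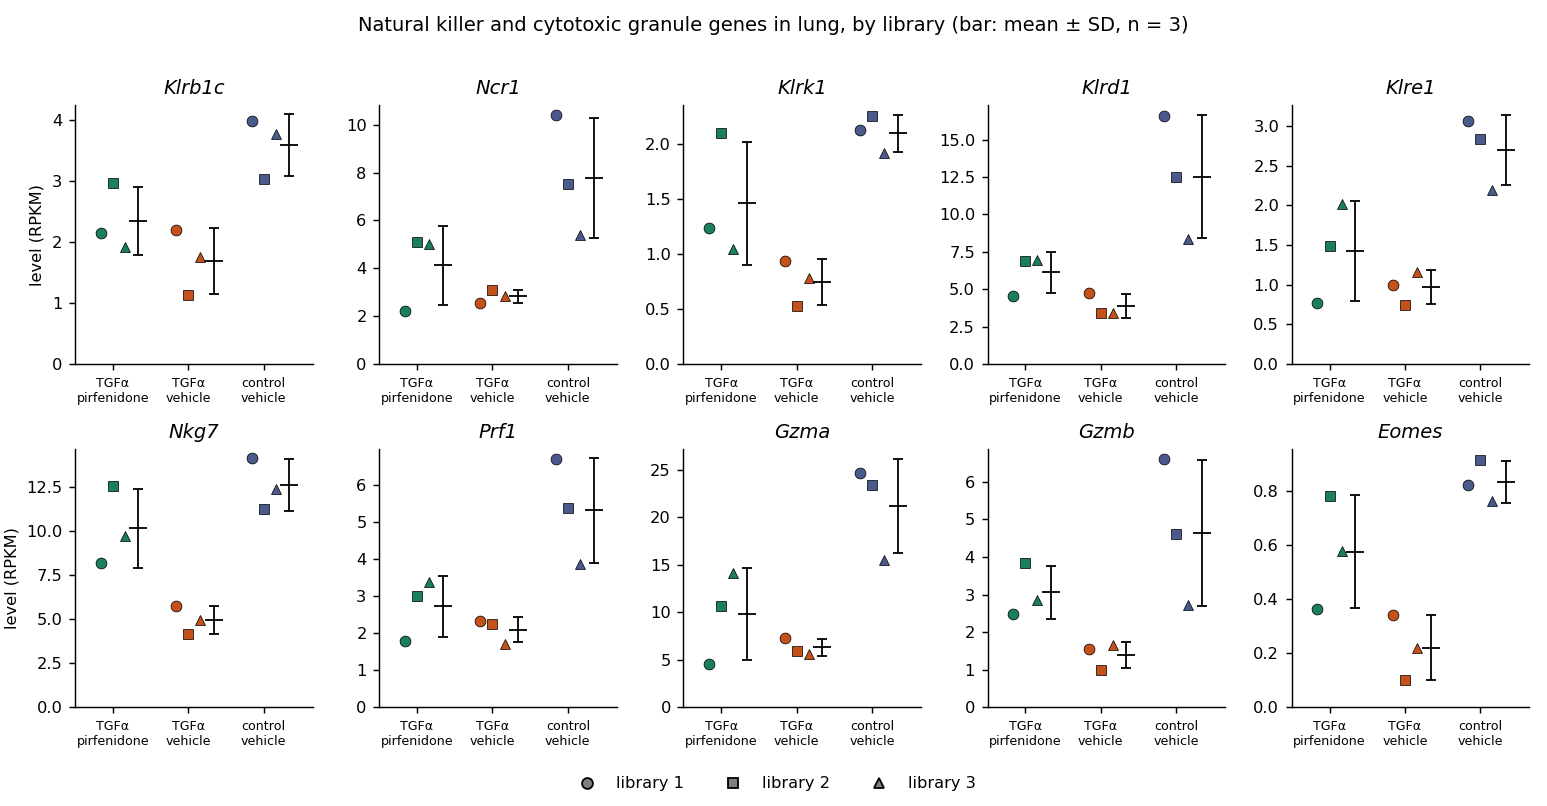
RPKM of each of the 10 genes (vertical axes, from 0) in the pirfenidone, TGFα vehicle and control libraries, with 1 point per library, its shape giving the library number, and a bar for the mean ± SD (n = 3). For all 10 genes the TGFα vehicle points lie below all control points, while pirfenidone points overlap control points for 4 genes and TGFα vehicle points for the other 6.

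Among the activating receptors, Ncr1, which encodes NKp46, was at 2.21, 5.12 and 5.03 RPKM in the pirfenidone libraries, at 2.57, 3.10 and 2.83 RPKM in the TGFα vehicle libraries, and at 10.4, 7.51 and 5.41 RPKM in controls. The TGFα vehicle libraries differed little among themselves and were all lower than the lowest control, while control library 1 was high. Ncr1 averaged 2.83 ± 0.265 RPKM in TGFα vehicle lungs and 7.78 ± 2.51 RPKM in controls (SD, n = 3 each), 2.75-fold lower (log2 fold change -1.16, SE 0.28, limma adjusted p = 0.0198). Its call was lost without control library 1, control library 2, TGFα vehicle library 2 or TGFα vehicle library 3, with adjusted p up to 0.0683 among the fits that left out 1 library.

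Klrb1c, which encodes the NK1.1 antigen of common laboratory strains, was at 2.14, 2.97 and 1.91 RPKM with pirfenidone, at 2.20, 1.12 and 1.76 RPKM with TGFα vehicle, and at 3.98, 3.02 and 3.77 RPKM in controls. Every TGFα library of either kind was below every control. Klrb1c averaged 1.69 ± 0.542 RPKM in TGFα vehicle lungs and 3.59 ± 0.502 RPKM in controls (SD, n = 3 each), 2.12-fold lower (log2 fold change -0.78, SE 0.18, limma adjusted p = 0.0176). This was the smallest fold among the 10 genes. Leaving out control library 1, TGFα vehicle library 2 or TGFα vehicle library 3 ended the call, with adjusted p up to 0.0649. The related Klrb1b and Klrb1a did not pass the threshold, with log2 fold changes of -0.32 and -0.16 in the same comparison.

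Klrk1 encodes NKG2D, which reads stress-induced ligands on target cells. Its levels were 1.24, 2.10 and 1.05 RPKM with pirfenidone, 0.937, 0.526 and 0.784 RPKM with TGFα vehicle, and 2.13, 2.26 and 1.92 RPKM in controls. The controls were tight, the TGFα vehicle libraries all lay under 1 RPKM, and pirfenidone library 2 reached the control range. Klrk1 averaged 0.749 ± 0.208 RPKM in TGFα vehicle lungs and 2.10 ± 0.168 RPKM in controls (SD, n = 3 each), 2.81-fold lower (log2 fold change -0.83, SE 0.17, limma adjusted p = 0.0113). The call was lost without TGFα vehicle library 2 (adjusted p = 0.0504).

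Klrd1 encodes CD94, the common partner of NKG2-type chains. Klrd1 stood at 4.55, 6.90 and 6.95 RPKM with pirfenidone, at 4.77, 3.40 and 3.43 RPKM with TGFα vehicle, and at 16.6, 12.5 and 8.39 RPKM in controls. Control levels spread widely, yet the lowest control was above all 6 TGFα libraries. Klrd1 averaged 3.86 ± 0.786 RPKM in TGFα vehicle lungs and 12.5 ± 4.11 RPKM in controls (SD, n = 3 each), 3.24-fold lower (log2 fold change -1.44, SE 0.24, limma adjusted p = 0.00544). It was called in all 9 fits that left out 1 library. Klrc1, which encodes the inhibitory NKG2A chain that pairs with CD94, averaged 0.655 RPKM in TGFα vehicle lungs and 1.51 RPKM in controls (log2 fold change -0.61, SE 0.16, limma adjusted p = 0.0252).

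Klre1 encodes a lectin-like receptor that in mice pairs with the products of Klri1 or Klri2. It was the most thinly counted of the receptors, with 8 to 47 reads per library. Klre1 was at 0.767, 1.49 and 2.02 RPKM with pirfenidone, at 0.999, 0.738 and 1.16 RPKM with TGFα vehicle, and at 3.06, 2.83 and 2.20 RPKM in controls. Every TGFα library was below every control. Klre1 averaged 0.966 ± 0.213 RPKM in TGFα vehicle lungs and 2.70 ± 0.446 RPKM in controls (SD, n = 3 each), 2.79-fold lower (log2 fold change -0.91, SE 0.20, limma adjusted p = 0.0146). The call was lost without control library 1, control library 2 or TGFα vehicle library 2, with adjusted p up to 0.0623. Its partner genes were too low to test: Klri1 averaged 0.486 RPKM in TGFα vehicle lungs and 0.733 RPKM in controls, and Klri2 averaged 0.219 RPKM in TGFα vehicle lungs and 0.656 RPKM in controls.

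Among the granule genes, Gzma was the most abundant of the 10 in every control. It encodes granzyme A, a protease with trypsin-like specificity. Gzma was at 4.58, 10.7 and 14.1 RPKM with pirfenidone, at 7.34, 5.93 and 5.67 RPKM with TGFα vehicle, and at 24.7, 23.4 and 15.5 RPKM in controls. No TGFα library reached the lowest control, and pirfenidone library 1 was the lowest of all 9. Gzma averaged 6.31 ± 0.895 RPKM in TGFα vehicle lungs and 21.2 ± 4.94 RPKM in controls (SD, n = 3 each), 3.36-fold lower (log2 fold change -1.58, SE 0.34, limma adjusted p = 0.0125). The call was lost without TGFα vehicle library 2 or 3, with adjusted p up to 0.0523.

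Gzmb encodes granzyme B, which cuts after aspartate and can activate caspases. Its levels were 2.47, 3.85 and 2.85 RPKM with pirfenidone, 1.55, 0.995 and 1.65 RPKM with TGFα vehicle, and 6.59, 4.61 and 2.71 RPKM in controls. The TGFα vehicle libraries were the lowest, and control library 3 sat among the pirfenidone libraries. Gzmb averaged 1.40 ± 0.353 RPKM in TGFα vehicle lungs and 4.64 ± 1.94 RPKM in controls (SD, n = 3 each), 3.32-fold lower (log2 fold change -1.18, SE 0.25, limma adjusted p = 0.0133). Without TGFα vehicle library 2 its adjusted p was 0.0571.

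Prf1, the gene of perforin, was at 1.79, 3.02 and 3.38 RPKM with pirfenidone, at 2.33, 2.27 and 1.73 RPKM with TGFα vehicle, and at 6.72, 5.38 and 3.88 RPKM in controls. All 6 TGFα libraries were below the lowest control. Prf1 averaged 2.11 ± 0.329 RPKM in TGFα vehicle lungs and 5.33 ± 1.42 RPKM in controls (SD, n = 3 each), 2.53-fold lower (log2 fold change -1.01, SE 0.21, limma adjusted p = 0.0125). Without TGFα vehicle library 3 its adjusted p was 0.0552.

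Nkg7 was at 8.18, 12.6 and 9.75 RPKM with pirfenidone, at 5.74, 4.14 and 4.95 RPKM with TGFα vehicle, and at 14.2, 11.3 and 12.4 RPKM in controls. The pirfenidone libraries lay between the other groups, with library 2 inside the control range and none inside that of TGFα vehicle. Nkg7 was 2.56-fold lower in TGFα vehicle lungs than in controls (log2 fold change -1.20, SE 0.16, limma adjusted p = 0.00269), the lowest adjusted p of the 10 genes, and the call was kept in all 9 fits that left out 1 library.

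Eomes was under 1 RPKM in all libraries. Its levels were 0.365, 0.782 and 0.577 RPKM with pirfenidone, 0.341, 0.0999 and 0.221 RPKM with TGFα vehicle, and 0.819, 0.914 and 0.760 RPKM in controls. The lowest value rests on 9 reads, and pirfenidone library 2 reached the control range. Without the filter the gene was 3.77-fold lower in TGFα vehicle lungs than in controls (log2 fold change -0.59, SE 0.11, limma adjusted p = 0.0103 over 16165 genes). Tbx21, which encodes T-bet, the T-box factor that acts beside it, averaged 0.636 ± 0.225 RPKM in TGFα vehicle lungs and 2.18 ± 0.781 RPKM in controls (SD, n = 3 each), and was called lower (log2 fold change -0.94, limma adjusted p = 0.0127).

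Pirfenidone-treated TGFα lungs had higher means than TGFα vehicle lungs for all 10 genes, but limma called 0 of the 9 tested, against 0.152% of all genes called higher. By limma-voom on the recovered reads 0 of 9 were called too, and 3 of 9 had an unadjusted p under 0.05 by limma, namely Nkg7, Gzmb and Klrk1, where 20.7% of all genes tested had one in either direction. In 4 of the 10 genes, Nkg7, Gzmb, Klrk1 and Eomes, every pirfenidone library was above every TGFα vehicle library, as in 15.3% of the genes tested. The comparison shares its TGFα vehicle libraries with the comparison above. Nkg7 averaged 10.2 ± 2.22 RPKM with pirfenidone and 4.95 ± 0.800 RPKM with TGFα vehicle (SD, n = 3 each), 2.06-fold higher (log2 fold change 0.90, 95% interval 0.53 to 1.27, limma adjusted p = 0.0529). Over the alternative fits its adjusted p ran between 0.0194 and 1.00. It passed the threshold after median-of-ratios scaling (adjusted p = 0.0486), after quantile normalization (adjusted p = 0.0469) and without pirfenidone library 3 (adjusted p = 0.0194).

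Gzmb averaged 3.06 ± 0.710 RPKM with pirfenidone and 1.40 ± 0.353 RPKM with TGFα vehicle (SD, n = 3 each), 2.19-fold higher on a log2 difference of 0.75 whose 95% interval ran between 0.18 and 1.33 (limma adjusted p = 0.155). For Klrk1 the group means stood 1.96-fold apart, with an interval of 0.09 to 0.87 (limma adjusted p = 0.174). The means of Eomes were 0.575 RPKM with pirfenidone and 0.220 RPKM with TGFα vehicle (limma adjusted p = 0.151 without the filter). The intervals of the other 6 genes included 0. Prf1 had the smallest log2 difference, 0.24 with an interval of -0.24 to 0.73, and Gzma the widest interval, -0.31 to 1.21. These intervals leave room for no difference and for one of more than 1 log2 unit in Gzma and Klrd1, so a p that missed the threshold does not show that the groups had the same level.

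**Figure D2:**
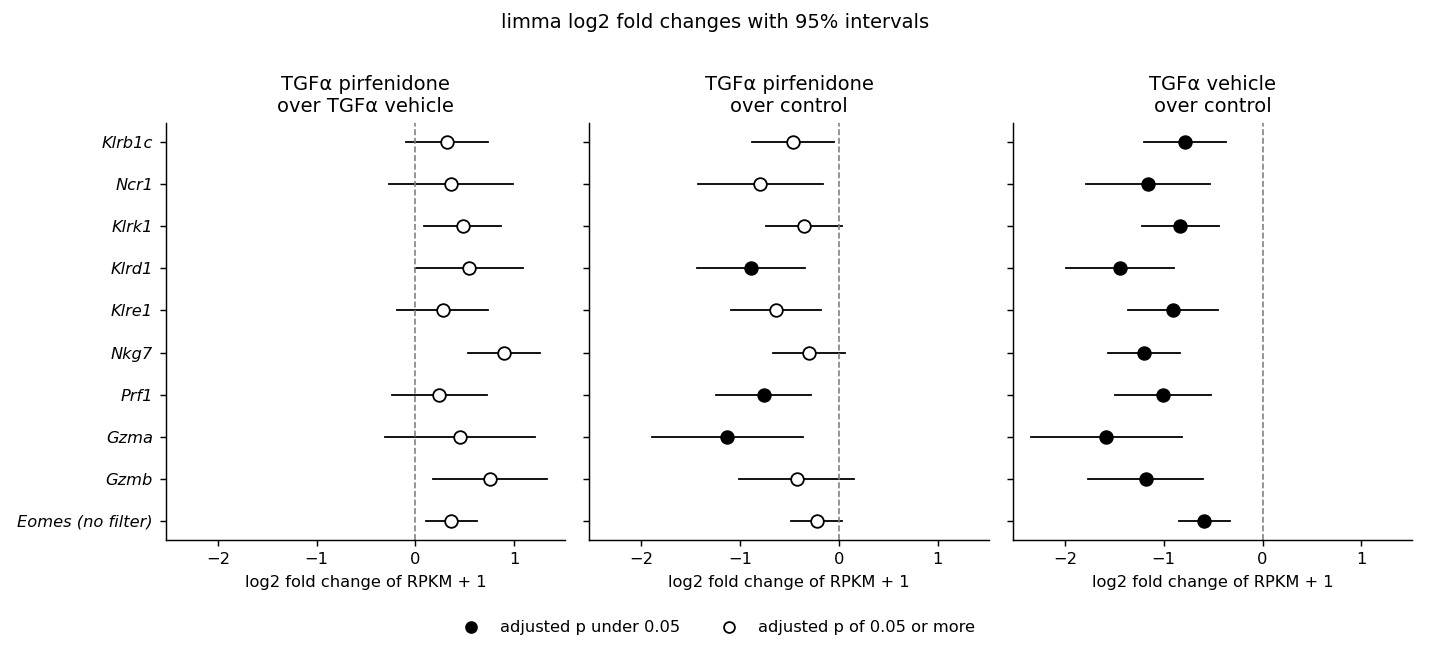
Log2 fold changes of RPKM + 1 (horizontal axes) of the 10 genes in the 3 comparisons, with 95% intervals, filled points marking an adjusted p under 0.05 and Eomes taken from the fit without a filter. All 10 points are filled and negative for TGFα vehicle over control, 3 are filled for pirfenidone over control, and none is filled for pirfenidone over TGFα vehicle.

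Set against controls, the pirfenidone group had means between 46.2% (Gzma) and 80.4% (Nkg7) of the control mean, with a median of 59.1%. Limma called 3 of the 9 tested lower, against 7.74% of all genes: Klrd1 (log2 fold change -0.90, SE 0.24, adjusted p = 0.0347), Prf1 (-0.76, SE 0.21, adjusted p = 0.0390) and Gzma (-1.13, SE 0.34, adjusted p = 0.0478). In 6 of the 10 genes, Klrb1c, Ncr1, Klrd1, Klre1, Prf1 and Gzma, every pirfenidone library was below every control, as in 14.8% of genes tested. For Nkg7, Klrk1, Gzmb and Eomes the pirfenidone and control ranges overlapped. The control libraries are those of the first comparison. The count of 3 fell to 1 by limma-voom, to 0 when only these groups were fitted, and to 0 without control library 1, control library 2, TGFα vehicle library 2, TGFα vehicle library 3, pirfenidone library 1 or pirfenidone library 2. It was 5 without control library 3, when Gzmb (adjusted p = 0.0462) and Ncr1 (adjusted p = 0.0401) also passed. Over all genes, 1473 were called higher and 1072 lower with pirfenidone than in controls, a split that turned to 1156 higher and 1356 lower after median-of-ratios scaling, while the 9 genes tested had negative log2 fold changes under all alternatives.

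The 10 genes did not move alike among pirfenidone libraries. Library 1 was the lowest of the 3 in 8 of the 10 genes. There Gzma stood at 21.6%, Ncr1 at 28.5%, Klre1 at 28.4% and Prf1 at 33.6% of the control mean, below the TGFα vehicle means. In the same library Nkg7 stood at 64.7%, Klrk1 at 59.1% and Gzmb at 53.3% of the control mean, above every TGFα vehicle library. The ratio of Gzma to Gzmb was 1.86, 2.78 and 4.95 in pirfenidone libraries 1, 2 and 3, against 3.45 to 5.96 in the TGFα vehicle libraries and 3.74 to 5.73 in controls. Pirfenidone library 1 also had the highest summed level of 15 T cell markers in its group, 99.9 RPKM against 77.7 and 81.0 RPKM in libraries 2 and 3, and the fewest reads of all 9 libraries. The part of depth or of T cell transcripts in this difference was not tested.

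**Figure D3:**
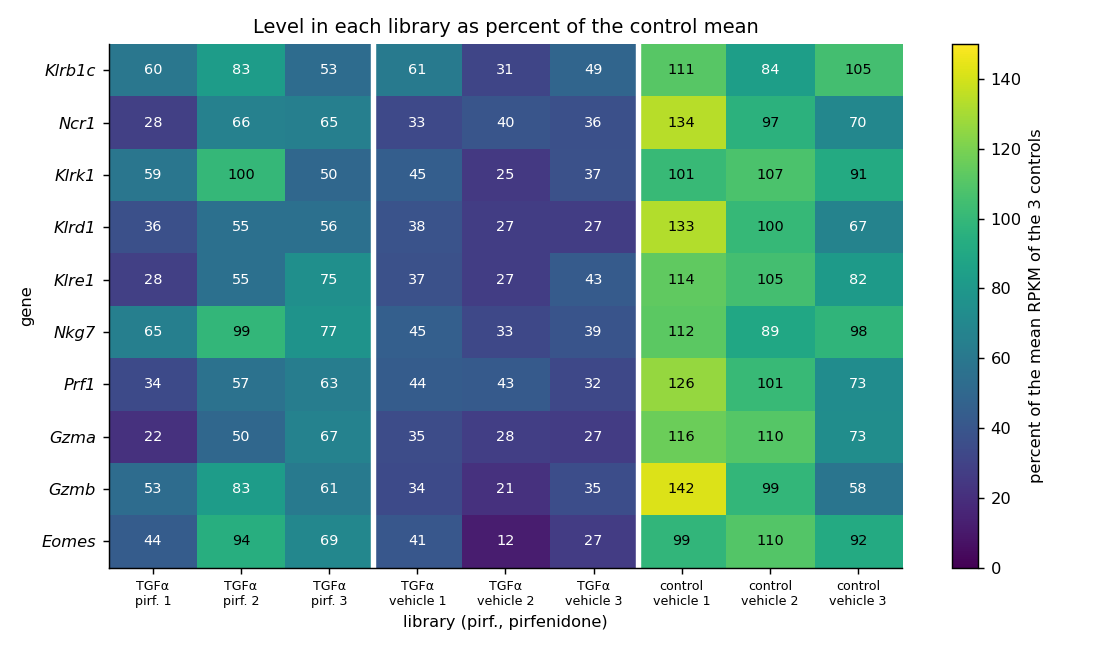
Level of each gene (rows) in each library (columns) as a percent of the mean RPKM of the 3 controls, with the value printed in each cell and colour running over 0 to 150%. TGFα vehicle columns are dark throughout, and in the column of pirfenidone library 1 Gzma (21.6%) is far below Nkg7 (64.7%).

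Controls differed among themselves as well. Control library 1 was the highest for 8 of the 10 genes and control library 3 the lowest for 8 of the 10. In control library 3 the 10 genes summed to 57.0 RPKM, against 89.2 and 73.7 RPKM in the other controls, although Ptprc (CD45, carried by all leukocytes) was highest there, at 58.8 RPKM against 41.2 and 43.1 RPKM. Over all 9 libraries the 45 pairs of the 10 genes had Pearson correlations of log2 level of 0.73 (Klrb1c with Ncr1) to 0.98 (Gzma with Klre1), with a median of 0.87. After the group means were taken out, the same pairs ran between 0.05 (Prf1 with Klrb1c) and 0.92 (Prf1 with Ncr1), with a median of 0.63. The points of each pair share libraries and depth, and the numbers describe these 9 libraries only.

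The 10 genes were also set beside other lymphocyte and leukocyte transcripts of the same libraries. Their summed level was 28.3 to 49.5 RPKM with pirfenidone, 22.3 to 28.8 RPKM with TGFα vehicle and 57.0 to 89.2 RPKM in controls. The 15 T cell markers summed to 77.7 to 99.9 RPKM with pirfenidone, 46.0 to 62.7 RPKM with TGFα vehicle and 109 to 155 RPKM in controls. Of the 14 tested, 13 were called lower in TGFα vehicle lungs than in controls, against 11.2% of all genes tested. None of these markers was at 0 in all libraries. Divided by the T cell sum, the 10 genes came to 0.283 to 0.637 with pirfenidone, 0.407 to 0.525 with TGFα vehicle and 0.367 to 0.816 in controls, ranges that overlap. Divided by Ptprc, they came to 0.805 to 1.53 with pirfenidone, 0.809 to 0.963 with TGFα vehicle and 0.969 to 2.17 in controls, so that control library 3 nearly met the highest TGFα vehicle library. Cd8a and Cd8b1, the chains of the cytotoxic T cell co-receptor, were both called lower in TGFα vehicle lungs than in controls (log2 fold changes -0.63 and -0.74, limma adjusted p = 0.0416 and 0.0109). The part of T cells in the level of the granule genes was not tested.

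Marker transcripts of other cell types differed as well. Over all genes tested, 11.2% were called lower in TGFα vehicle lungs and 7.74% in pirfenidone lungs than in controls. These shares are the background for each list count here and below. Of 10 B cell markers, 7 were called lower in TGFα vehicle lungs than in controls, and their sum was 60.1 to 93.2 RPKM with pirfenidone, 36.6 to 46.5 RPKM with TGFα vehicle and 83.3 to 138 RPKM in controls. Of 7 tested neutrophil markers, 5 were called lower in each TGFα group than in controls, with sums of 78.8 to 192 RPKM with pirfenidone, 116 to 142 RPKM with TGFα vehicle and 288 to 368 RPKM in controls. Endothelial markers had 10 of 12 called lower in each TGFα group, and their sum was 1074 to 1100 RPKM with pirfenidone, 878 to 1285 RPKM with TGFα vehicle and 1725 to 2627 RPKM in controls. Alveolar type 2 markers went the other way, with 4 of 9 called higher in TGFα vehicle lungs, against 12.0% of all genes. The 10 pan-leukocyte markers summed to 450 to 620 RPKM with pirfenidone, 408 to 453 RPKM with TGFα vehicle and 455 to 897 RPKM in controls, so that the highest TGFα vehicle library nearly met the lowest control. Of these 10, Ptprc, Coro1a and Rac2 were called lower in TGFα vehicle lungs than in controls. The part of any of these in the lower natural killer genes was not tested.

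**Figure D4:**
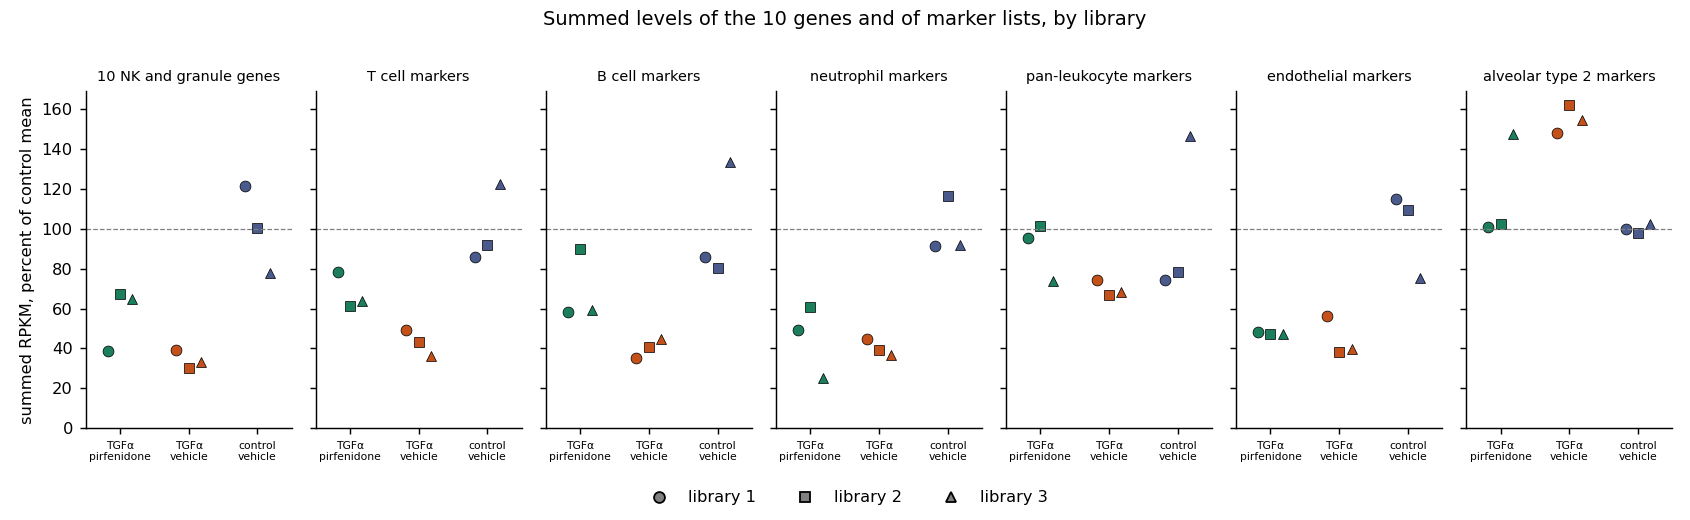
Summed RPKM of the 10 genes and of 6 marker lists in each library, as a percent of the control mean (vertical axis, dashed line at 100%), with point shape giving the library number. The 10 genes stood at 38.6 to 67.5% with pirfenidone and 30.4 to 39.2% with TGFα vehicle, beside T cell markers at 61.2 to 78.6% with pirfenidone and 36.2 to 49.4% with TGFα vehicle.

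Of 39 listed receptors and surface markers of natural killer cells outside the 10 genes, 21 were tested. In TGFα vehicle lungs 13 were called lower than in controls, against 11.2% of all genes tested. None was called higher and 8 were not called, with a median log2 fold change of -0.68. The summed level of the list overlapped between these groups, at 92.8 to 117 RPKM with TGFα vehicle and 104 to 188 RPKM in controls. With pirfenidone 0 of 21 differed from TGFα vehicle by limma, and against controls 6 were called lower and 1 higher. The 1 called higher was Cx3cr1, a chemokine receptor that macrophages also carry, at 26.8 ± 10.5 RPKM with pirfenidone and 7.56 ± 4.01 RPKM in controls (SD, n = 3 each, limma adjusted p = 0.0176), where 10.6% of all genes were called higher. Cx3cr1 was at 31.45 and 34.12 RPKM in pirfenidone libraries 1 and 2, which held skeletal muscle transcripts. It was at 14.79 RPKM in pirfenidone library 3, near the 12.15 RPKM of control library 3. The other most abundant members of this list, Fcgr3 and Itgam, are shared with myeloid cells and passed no test. For TGFα vehicle over control, log2 fold changes were 1.16 for Cx3cr1 (limma adjusted p = 0.0574), 0.27 for Fcgr3 and -0.26 for Itgam. Il2rb, the shared β chain of the interleukin-2 and interleukin-15 receptors, averaged 4.64 ± 0.445 RPKM with pirfenidone, 2.57 ± 0.116 RPKM with TGFα vehicle and 9.08 ± 2.04 RPKM in controls (SD, n = 3 each). It was called lower in TGFα vehicle lungs than in controls (log2 fold change -1.48, limma adjusted p = 0.00106) and in pirfenidone lungs than in controls (log2 fold change -0.82, adjusted p = 0.00706). Its pirfenidone libraries all lay above the TGFα vehicle libraries (adjusted p = 0.0747). S1pr5, a receptor that natural killer cells use to leave tissues, named after its values were seen, averaged 1.64 RPKM with pirfenidone, 0.795 RPKM with TGFα vehicle and 3.20 RPKM in controls.

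The adaptors through which the receptors signal gave a mixed picture. Tyrobp (DAP12) averaged 185 RPKM with pirfenidone, 154 RPKM with TGFα vehicle and 168 RPKM in controls, and Fcer1g, the common Fc receptor chain, averaged 93.4 RPKM with pirfenidone, 61.3 RPKM with TGFα vehicle and 76.8 RPKM in controls. Hcst (DAP10), the partner of NKG2D, averaged 7.93 RPKM with pirfenidone, 4.94 RPKM with TGFα vehicle and 8.28 RPKM in controls. None of these passed the test in any comparison, and Tyrobp and Fcer1g, which myeloid cells carry, were highest in control library 3 (258 and 131 RPKM). Of 19 adaptor and signalling genes tested, 9 were called lower in TGFα vehicle lungs than in controls, 0 differed between pirfenidone and TGFα vehicle by limma, and Zap70 was among the 2 called lower with pirfenidone than in controls. Zap70, a kinase of the T cell receptor and of natural killer cell receptors, averaged 2.10 RPKM with pirfenidone, 1.56 RPKM with TGFα vehicle and 3.89 RPKM in controls (adjusted p = 0.0310 for pirfenidone against controls).

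Of 14 other granule and release genes tested, 7 were called lower and 1 higher in TGFα vehicle lungs than in controls, 0 differed between the TGFα groups by limma, and 4 (Fasl, Tnfsf10, Unc13d and Stx11) were called lower with pirfenidone than in controls. Unc13d, which primes granules for fusion, averaged 9.21 ± 1.92 RPKM with pirfenidone, 8.75 ± 0.231 RPKM with TGFα vehicle and 17.1 ± 2.12 RPKM in controls (SD, n = 3 each). Fasl, a death ligand of cytotoxic lymphocytes, averaged 0.772 RPKM with pirfenidone, 0.459 RPKM with TGFα vehicle and 1.51 RPKM in controls. The gene called higher was Ctsc, a protease that trims granzymes into their active form and that other cells also use, at 188 ± 24.0 RPKM in TGFα vehicle lungs and 115 ± 45.1 RPKM in controls (SD, n = 3 each, limma adjusted p = 0.0440), although control library 3 (167 RPKM) lay within the TGFα vehicle range. Lamp1 and Vamp8, general vesicle proteins and the most abundant in the list, passed no test. Among 5 granzyme inhibitors and serpins tested, Serpina3g and Serpina3f were called lower in both TGFα groups than in controls, while Serpinb9, an inhibitor of granzyme B, was at 42.4 RPKM with pirfenidone, 44.5 RPKM with TGFα vehicle and 60.01 RPKM in controls and passed no test.

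Of 15 other transcription factors tested, 7 were called lower in TGFα vehicle lungs than in controls and 4 (Nfil3, Ets1, Ikzf3 and Stat4) were called lower with pirfenidone than in controls. Klf2, which is also an endothelial factor, averaged 85.7 RPKM with pirfenidone, 51.7 RPKM with TGFα vehicle and 185 RPKM in controls (adjusted p = 0.00626 for TGFα vehicle against controls). Id2, an early factor of innate lymphocytes that many lung cells express, averaged 54.3 RPKM with pirfenidone, 54.8 RPKM with TGFα vehicle and 56.5 RPKM in controls and passed no test. Of 17 genes of interleukin-15, interleukin-12 and interleukin-18 signalling tested, 8 were called lower and Il18 higher in TGFα vehicle lungs than in controls, and 6 were called lower with pirfenidone than in controls. The lists share genes, so their counts are not separate results. Among the 8, Il2rb, Il12rb2 and Il18rap were also counted with the receptors, and Stat4 with the transcription factors. Lat and Tnfsf10 also recur across lists. Il15, the survival cytokine of natural killer cells, averaged 4.54 ± 0.933 RPKM with pirfenidone, 3.40 ± 0.182 RPKM with TGFα vehicle and 4.30 ± 0.143 RPKM in controls (SD, n = 3 each) and passed no test. Il18 averaged 34.7 RPKM with pirfenidone, 40.6 RPKM with TGFα vehicle and 28.2 RPKM in controls (limma adjusted p = 0.0116 for TGFα vehicle against controls). In both lists 0 genes differed between pirfenidone and TGFα vehicle by limma.

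Among 12 effector cytokine and chemokine genes tested, Ccl5 and Ltb were called lower in TGFα vehicle lungs than in controls. Ccl5, a chemokine made by natural killer and T cells, was at 35.9, 40.0 and 30.8 RPKM with pirfenidone and at 17.5, 12.8 and 12.0 RPKM with TGFα vehicle. The groups did not overlap, and Ccl5 was the 1 gene of all these functional lists that limma called between them (2.53-fold higher with pirfenidone, log2 fold change 1.29, adjusted p = 0.00818). Of 15 receptor ligands tested, 6 were called lower in TGFα vehicle lungs than in controls, B2m and H2-D1 of the class I molecules among them, and Icam1 and Tnfrsf14 were called lower with pirfenidone than in controls. B2m averaged 1219 RPKM with pirfenidone, 835 RPKM with TGFα vehicle and 1447 RPKM in controls, which is 1.46-fold higher with pirfenidone than with TGFα vehicle without passing the test (adjusted p = 0.197).

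The natural killer gene complex allowed the 4 clustered genes to be set beside their neighbours. The interval between the start of Klrb1c and the end of Klrk1 spans 845.4 kb, and Klre1, Klrd1 and Klrk1 lie within 64.5 kb at its end. Of 21 genes of the table in the interval, 19 were tested, and 15 of these were not among the 10 genes. Among the 15, Clec2i, Clec2d, Cd69 and Clec1b were called lower in TGFα vehicle lungs than in controls and none was called higher. Of the 15, only Olr1 had a positive log2 fold change (0.05). BC035044, Clec1a, Gm15987, Clec9a, BC064078 and 2310001H17Rik were not called, with limma adjusted p of 0.0510 to 0.111. Their 95% intervals nonetheless lay below 0, so most neighbours leaned the same way as the clustered genes. Cd69, an early activation marker of lymphocytes, averaged 4.26 RPKM with pirfenidone, 2.06 RPKM with TGFα vehicle and 6.19 RPKM in controls (log2 fold change of TGFα vehicle over control -1.22, limma adjusted p = 0.00725). Clec2d encodes a ligand of an NKR-P1 receptor, and Clec1b is a platelet receptor. Gabarapl1, an autophagy gene beside Klre1, averaged 129 RPKM with pirfenidone, 104 RPKM with TGFα vehicle and 109 RPKM in controls, with a log2 fold change of TGFα vehicle over control of -0.06 (adjusted p = 0.812). Olr1 and Clec7a, receptors of myeloid and other cells, passed no test.

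**Figure D5:**
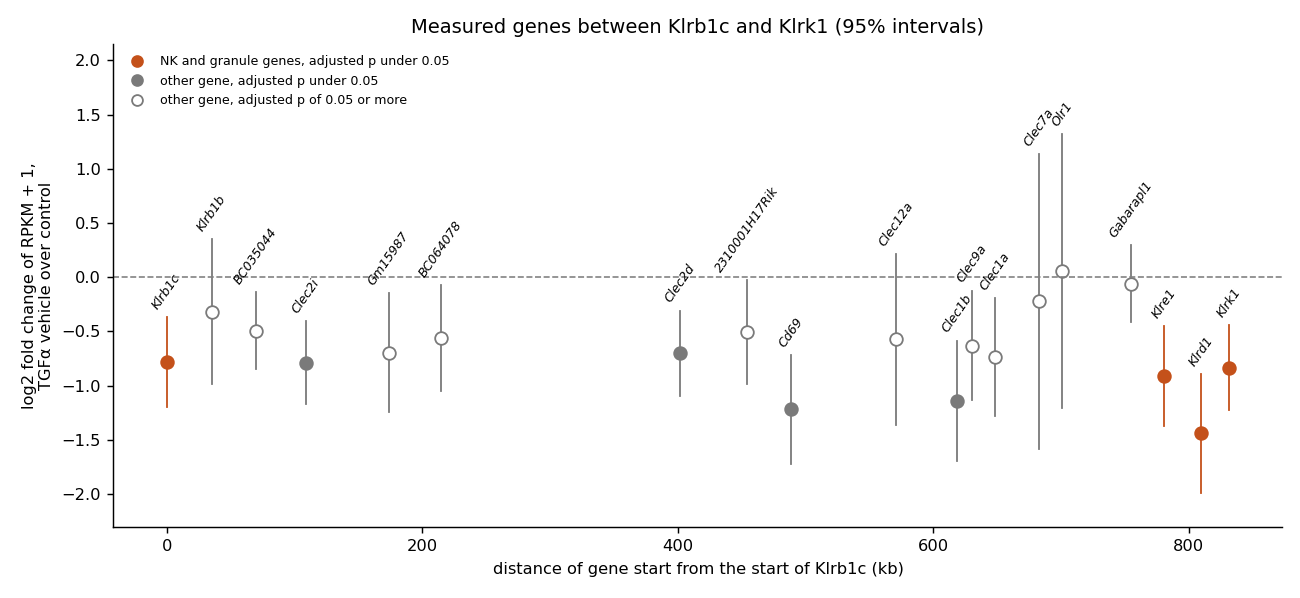
Log2 fold change of RPKM + 1, TGFα vehicle over control, with 95% intervals (vertical axis), of the 19 tested genes between Klrb1c and Klrk1, by distance of the gene start from that of Klrb1c in kb (horizontal axis). The 4 coloured genes lie at 0 kb and at 781 to 832 kb, and Gabarapl1 at 755 kb stands at -0.06 beside Klre1 at -0.91. Olr1 is the only gene with a point above 0.

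Genes whose level across the 9 libraries was most like the mean standardised level of the 10 genes were ranked by Pearson correlation among 12852 genes with a mean of at least 1 RPKM. The closest were Slc22a3 (0.981), Adcy8 (0.978), Bcl6b (0.975), Suox (0.968), Abi3bp (0.965) and Bace2 (0.965). After group means were taken out, genes among the 6 closest were Armcx6 (0.990), Nbeal1 (0.967), Fam162b (0.934), Crk (0.932) and Higd1a (0.925). Each correlation rests on 9 libraries in 3 groups and is a description.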

How the data were processed

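Total RNA of mouse lung was extracted with a column kit and made into Illumina libraries, per the labels' protocols. Per the submitters' processing notes, the tools included TopHat, DESeq, bcl2fastq and CASAVA 1.8, with build mm10, and no role is given for each. The deposited table gives RPKM values, a unit read from the values since the header names none: the authors' values were whole multiples of 1 read per gene (16165 of 16165 genes, within 0.0001 reads). No column of sample values was left unused (0). Symbols of 29 rows were taken from RefSeq by gene ID.

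From these RPKM values, log2(RPKM + 1) was fitted with limma 3.58.1 (R 4.3.3), with 1 mean per group over all 9 libraries, moderated with a mean trend (6 residual and 2.67 prior degrees of freedom). Tests were two-sided. Recovered reads were used for limma-voom, and the fit was tested on simulated data. Alternatives were pseudocount, filter, scaling, voom, only the groups compared, replicate number and each library left out. Promoters came from RefSeq GRCm38.p6. The 10 genes and all gene lists were chosen with earlier results of these data known. The text names the 10 genes, the 3 most abundant genes of each list where they bear on it, fixed receptor partners, and list members whose count is 5 or fewer. Some genes that this rule covers are not reported here.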

Additional observations from a re-analysis of the deposited data

How the results depend on the processing

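For TGFα vehicle against control, 9 of 9 genes were called under the other pseudocount, the other filter on low values, both scalings, voom, the fit of only 2 groups and the replicate block, and 10 of 10 without a filter. Left-out libraries gave 3 to 9 (all genes: 1317 to 3977, against 3222), and leaving out the 4 libraries with skeletal muscle transcripts gave 0 (all genes: 366). For pirfenidone against TGFα vehicle, 0 became 1 (Nkg7) after median-of-ratios scaling and 1 after quantile normalization, and left-out libraries gave 0 to 1. Over all genes, 97 calls became 63 without a filter, 64 by voom without a filter, 11 with only 2 groups fitted, 21 with the replicate block, 0 without the muscle-holding libraries, and 10 to 2124 with 1 library left out, the highest without pirfenidone library 3. For pirfenidone against control, 3 became 1 by voom, 0 by voom without a filter, 0 with only 2 groups fitted, 0 with the replicate block, 0 without the muscle-holding libraries and 0 to 5 with 1 library left out (all genes: 62 without the muscle-holding libraries, 1121 to 3069 with 1 library left out, against 2545). Fits without those libraries or with 1 left out have fewer samples; otherwise the cause was not tested. No log2 fold change of the 10 genes changed sign in the 516 pairs of gene and setting. In many of these pairs the log2 fold change could not differ from the main fit. That holds for another filter, only 2 groups fitted, the replicate block, and a library left out of the group not compared. Same-numbered libraries did not deviate together in every pair (correlations of -0.14 to 0.46 over the 9 pairs), so the numbers were not taken as pairs. Depth limits Klre1 and Eomes most.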

Other observations

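Further marker lists were read beside the 10 genes. Red cell genes had 4 of 4 called lower in each TGFα group than in controls, with summed levels of 46.1 to 56.4 RPKM with pirfenidone, 37.8 to 52.3 RPKM with TGFα vehicle and 92.8 to 133 RPKM in controls. Alas2, the first enzyme of haem synthesis in red cells, averaged 20.5 RPKM with pirfenidone, 17.8 RPKM with TGFα vehicle and 60.04 RPKM in controls. Platelet genes had 5 of 5 tested called lower in TGFα vehicle lungs than in controls, and 2 (Ppbp and Clec1b) with pirfenidone. Their sums were 30.6 to 40.1 RPKM with pirfenidone, 13.7 to 24.4 RPKM with TGFα vehicle and 45.9 to 110 RPKM in controls. Mast cell and basophil genes had 3 of 7 (Kit, Hdc and Gata2) called lower in each TGFα group than in controls. The other 4 were not called, and the list did not move as 1. Its median log2 fold change over controls was -0.53 for TGFα vehicle and 0.15 for pirfenidone, where the 4 lay above controls. Of 5 plasmacytoid dendritic cell genes, Siglech was called lower in both TGFα groups, Bst2 in TGFα vehicle lungs, and Tcf4 and Runx2 were called higher with pirfenidone than in controls.

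Of 5 genes of type 1 innate lymphocytes, relatives of natural killer cells, Tnfsf10 and Il7r were called lower in TGFα vehicle lungs than in controls. Itga1 and Tnfsf10 were called lower with pirfenidone than in controls. Itga1, an integrin that vessel and smooth muscle cells also carry, averaged 7.85 RPKM with pirfenidone, 16.0 RPKM with TGFα vehicle and 17.6 RPKM in controls, so that its pirfenidone level lay below that of TGFα vehicle while all 10 natural killer and granule genes lay above (limma adjusted p = 0.0767 for pirfenidone against TGFα vehicle). Of 12 macrophage genes, 1 (Car4) was called lower in both TGFα groups than in controls, near the 11.2% and 7.74% of all genes. The median log2 fold change of the 12 for TGFα vehicle over control was 0.31. C1qa, C1qb and C1qc were called higher with pirfenidone than in controls, where 10.6% of all genes were. C1qa was at 289, 315 and 106 RPKM in pirfenidone libraries 1, 2 and 3, and at 105 RPKM in control library 3. None of the 8 tested skeletal muscle genes was called in any comparison, which does not show equal levels. Their median log2 fold change over controls was 2.962 for TGFα vehicle and 2.895 for pirfenidone. Only some libraries of each TGFα group held these transcripts, so the spread was wide (SE 2.376 for Acta1).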
